A study of Mus musculus with 6 samples.

Results

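Macrophage genes were followed at embryonic day 12.5 in the whole fetal liver of 3 Rb null and 3 wild type mouse embryos, all from 129sv parents heterozygous for Rb. The Rb null embryos carry no functional retinoblastoma gene in any tissue, so macrophages, erythroblasts and hepatoblasts all lacked it, and no other allele or treatment is given in the labels. Each liver was dissected and disaggregated in saline, and its total RNA was read on its own Affymetrix array, so n = 3 embryos per genotype throughout. The 36 genes chosen are receptors, complement components, lysosomal proteins, engulfment proteins and signalling proteins known from macrophages. Of these, 32 had at least 1 probe set annotated to that symbol alone, among 8251 genes on the array, and they were read by 43 probe sets among 12422. Cd163, Dnase2a, Lyz1 and Timd4 had no such probe set and are not analysed here.

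Macrophages of the fetal liver sit at the centre of erythroblastic islands, where erythroblasts mature around them. They engulf the nuclei that erythroblasts expel and break them down in lysosomes, and they clear dying cells. Their survival and differentiation depend on the receptor encoded by Csf1r, and their genes are driven to a large part by the transcription factor PU.1, the product of Spi1. The comparison asks whether macrophage transcripts differ with the Rb genotype of the embryo.

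Levels are MAS5 signals, as deposited, which are linear and scaled to the same trimmed mean on every array. Before log2 was taken an offset of 50.02 was added, so fold changes, given as log2 of Rb null over wild type ± SE, understate the change of dim genes. Each gene was represented by its brightest probe set, and genes were tested with limma where the mean signal over the 6 arrays exceeded 150.1. A gene is said to rise or fall only at a limma p below 0.05 after Benjamini-Hochberg adjustment over 6793 tested probe sets. The median array signal was 197 to 203 in the Rb null and 176 to 186 in the wild type livers. Rb1 itself read 136 ± 7.52 in the Rb null and 750.1 ± 42.3 in the wild type livers (SD, n = 3).

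Of 20 tested macrophage genes, 5 rose in Rb null livers and none fell. The 5 were Cd53, Lyz2, Laptm5, Cyba and Csf1r, and their rises were small, from 1.23-fold to 1.50-fold. They made up 25% of the tested members, where 13.1% of 5273 tested genes on the array rose and 9.5% fell. At an unadjusted limma p below 0.05 the members gave the same counts, 5 higher and 0 lower. The share of all tested genes past that unadjusted threshold was not counted, so unadjusted counts, here and for other lists, have no background beside them. The changes of 18 of the 20 members lay above 0 (90%), against 53.8% of all tested genes, and the median change was 0.18 against 0.02. The number of members above 0 was 15 of 20 after quantile normalization, after scaling to equal medians and after cyclic loess. The medians of all tested genes were then -0.02, -0.10 and -0.01. All 3 Rb null embryos lay above all 3 wild type embryos for 7 members (35%), against 23.5% of all tested genes, and the reverse held for 0 members against 17.6%. Shares of called genes varied with brightness: 14.8% of genes rose and 3.64% fell in the signal range from 313 to 633 that held 11 of the 20 members. The number called fell to 3 without Rb null embryo 2 or Rb null embryo 3, after scaling the arrays to equal medians and after cyclic loess normalization, so that 15% of the members rose where the backgrounds were 7.73%, 10.2%, 6.94% and 10.9%.

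**Figure D1:**
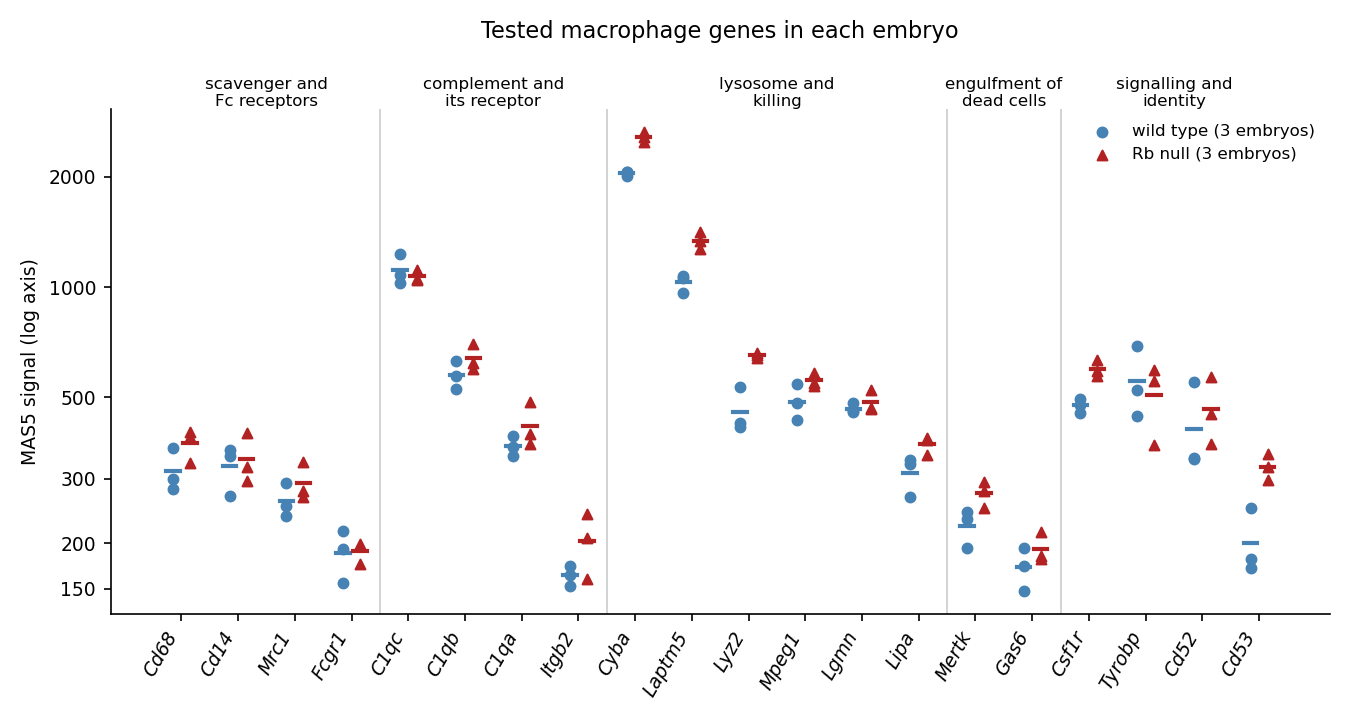
MAS5 signal (log axis) of the 20 tested macrophage genes in each embryo, grouped by role. Circles are 3 wild type and triangles 3 Rb null embryos, and short bars are group means. The triangles lie clear above the circles for Cyba, Laptm5, Lyz2, Lipa, Mertk, Csf1r and Cd53, and the groups overlap for the other 13 genes.

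Promoter sequences were read for the genes that rose, because PU.1 is known to bind the purine-rich PU box GAGGAA in genes of the macrophage lineage. The RefSeq promoter table for GRCm38.p6 held 28 windows for 26 of the 36 members, and the 250 bases before the start site were searched on both strands. Of the risen genes, 4 had a window. Cd53 and Laptm5 each held 1 PU box, 39 and 38 bases before the start, and Lyz2 and Cyba held none. Both windows are shown 5′ to 3′ in the direction of the gene, with the PU box in capitals. That of Cd53 is chr3:106790150-106790399 on the minus strand, and that of Laptm5 is chr4:130913066-130913315 on the plus strand, where the box reads from the opposite strand as TTCCTC.
Cd53: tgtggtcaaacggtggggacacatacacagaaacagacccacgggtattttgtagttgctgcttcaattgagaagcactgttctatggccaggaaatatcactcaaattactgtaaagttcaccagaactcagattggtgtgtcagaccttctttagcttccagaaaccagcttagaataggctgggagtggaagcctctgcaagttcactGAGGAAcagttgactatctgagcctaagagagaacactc
Laptm5: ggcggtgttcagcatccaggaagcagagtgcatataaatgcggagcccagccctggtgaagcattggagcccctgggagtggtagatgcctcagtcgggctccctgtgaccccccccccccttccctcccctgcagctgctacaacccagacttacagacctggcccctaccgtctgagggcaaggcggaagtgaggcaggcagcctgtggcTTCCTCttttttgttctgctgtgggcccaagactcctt
The PU box occurred in 14 of the 28 member windows (50%) and in 23.3% of all 32851 promoter windows of the same length. It was present in 2 of the 4 risen members with a window and in 6 of 10 tested members that did not pass. The E2F sites TTTGGCGC, TTTCCCGC, TTTCGCGC and TTTGCCGC, through which Rb is known to restrain its targets, were in 0 of the 28 member windows and in 1.86% of all windows. At so low a share, 28 windows are too few to set the members apart from other genes by these sites. A match of letters is a description and does not show that a factor binds there.

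Of the 6 tested genes of lysosomes and microbial killing 3 rose, namely Cyba, Laptm5 and Lyz2, where 13.1% of all tested genes rose. With so few genes in a role, that share sets no role apart from the others. Cyba, which encodes the p22phox subunit of the phagocyte NADPH oxidase and is also made by many other cells, read 2574, 2653 and 2498 in the Rb null and 2014, 2066 and 2059 in the wild type livers. The groups lay well apart, and the wild type values spanned a narrow range. The change was 0.32 ± 0.05 (limma adjusted p = 0.0037). Another Cyba probe set read 623, 718 and 655 in Rb null against 478, 401 and 479 in the wild type livers, and it also rose (0.51 ± 0.09, limma adjusted p = 0.0071).

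Laptm5, a lysosomal membrane protein of leukocytes, read 1417, 1268 and 1333 in the Rb null and 1073, 966 and 1060 in the wild type livers. No Rb null value came near the wild type range, and the change was 0.36 ± 0.07 (limma adjusted p = 0.0090). Its other probe set gave nearly the same change (0.36 ± 0.10, limma adjusted p = 0.042), with 788, 903 and 1028 in Rb null against 672, 760 and 650 in the wild type livers. After scaling to equal medians the Laptm5 change was 0.23 and the call was lost (limma adjusted p = 0.057).

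Lyz2, the lysozyme of macrophages and granulocytes, read 652, 641 and 661 in the Rb null and 425, 414 and 533 in the wild type livers. The Rb null embryos were nearly equal to each other, and wild type embryo 3 was the highest of its group but stayed below all of them. The change was 0.48 ± 0.10 (limma adjusted p = 0.012). A probe set annotated to both Lyz1 and Lyz2, which stands for no single gene, read 766, 584 and 498 in the Rb null and 347, 351 and 322 in the wild type livers (0.75 ± 0.14, limma adjusted p = 0.0074). Another Lyz2 probe set was dim at a mean of 28.5 over the 6 arrays. Signals of the paralogous lysozymes cannot be fully separated on this array.

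The other lysosomal members had changes above 0 that did not pass. Lipa, the acid lipase that releases cholesterol from engulfed lipoprotein, read 348, 388 and 381 in the Rb null and 328, 268 and 336 in the wild type livers. The groups did not overlap, yet the change of 0.23 ± 0.10 missed the threshold (limma adjusted p = 0.15). Mpeg1, the pore-forming perforin-2 of macrophages, read 537, 548 and 584 against 483, 432 and 544, with wild type embryo 3 inside the Rb null range (0.18 ± 0.09, limma adjusted p = 0.20). Lgmn, the asparaginyl endopeptidase legumain, differed least of the lysosomal members, at 485 ± 32.7 against 466 ± 14.8 (SD, n = 3), and the 95% interval of its change ran from -0.13 to 0.23.

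Csf1r, the receptor for colony-stimulating factor 1 and the defining receptor of the lineage, read 570.2, 632 and 590.5 in the Rb null and 495, 477 and 453 in the wild type livers. Every Rb null embryo lay above every wild type embryo, and the change was 0.30 ± 0.08 (limma adjusted p = 0.025). This call was among the least stable. It was lost after quantile normalization (0.23, limma adjusted p = 0.063), equal medians (0.18, limma adjusted p = 0.13) and cyclic loess (0.24, limma adjusted p = 0.058). Leaving out Rb null embryo 2 (limma adjusted p = 0.083), Rb null embryo 3 (0.052), wild type embryo 2 (0.052) or wild type embryo 3 (0.080) ended it as well. Another Csf1r probe set was dim, at 105 ± 8.94 against 88.8 ± 19.0 (SD, n = 3), and its groups overlapped.

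Cd53, a tetraspanin of the leukocyte surface, had the largest rise of the tested members. It read 297, 322 and 350.2 in the Rb null and 171, 180.3 and 249.8 in the wild type livers, where embryo 3 was again the highest of its group. The change was 0.59 ± 0.14, or 1.50-fold (limma adjusted p = 0.018). The call was lost after cyclic loess (0.48, limma adjusted p = 0.051). It was also lost without Rb null embryo 2 (limma adjusted p = 0.060), Rb null embryo 3 (0.054) or wild type embryo 1 (0.056), and a stricter filter at 500.2 left Cd53 untested.

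The adaptor and surface genes Tyrobp and Cd52 varied more between embryos of a genotype than between genotypes. Tyrobp encodes DAP12, the adaptor of activating receptors, and read 370.1, 553 and 595 in Rb null against 444, 690 and 524 in the wild type livers. The ranges overlapped from 444 to 595, with the lowest value in an Rb null and the highest in a wild type embryo, and the change was -0.12 with a 95% interval from -0.56 to 0.32. Cd52, a small anchored glycoprotein of leukocytes, read 450.4, 569 and 372 against 341, 551 and 339, so that embryo 2 was the highest in both genotypes (0.17, 95% interval -0.28 to 0.62). Both intervals include 0 as well as the 0.30 of Csf1r.

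**Figure D2:**
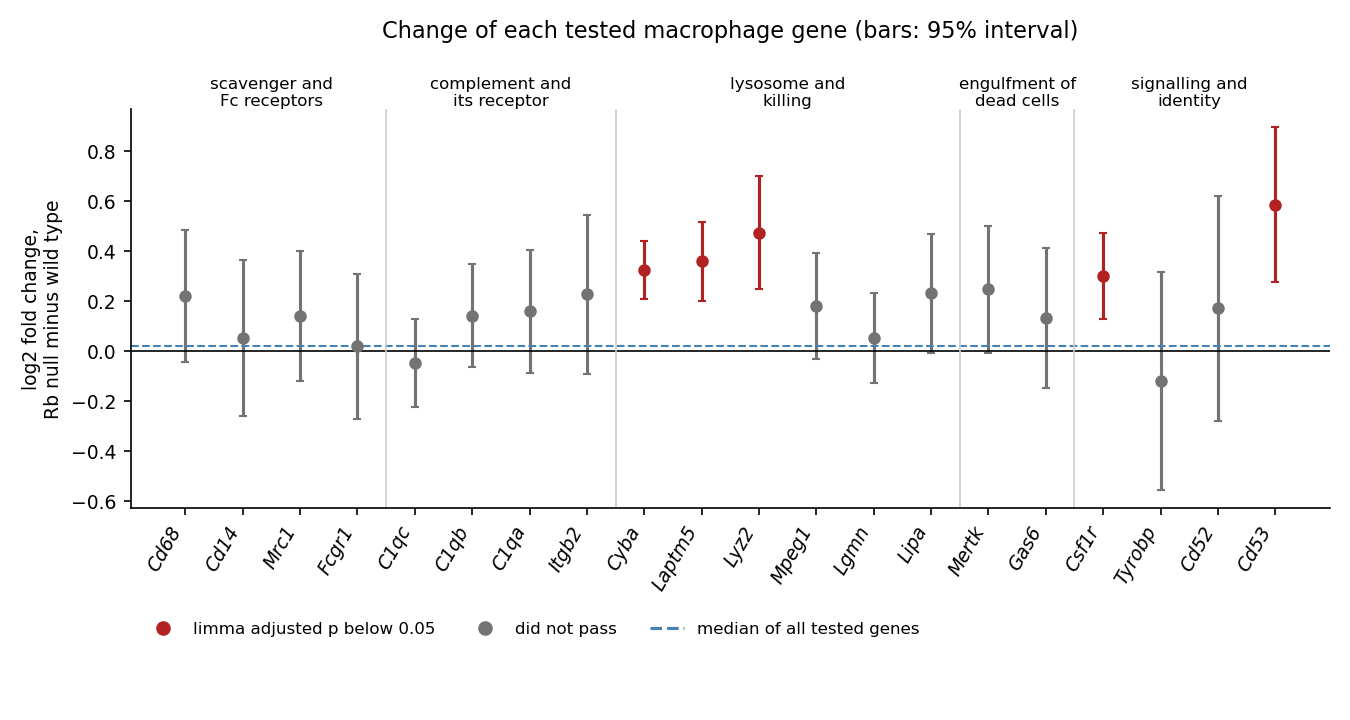
Log2 fold change (Rb null minus wild type) of the 20 tested macrophage genes by role, with 95% intervals from limma. The 5 genes that passed are drawn in red, all between 0.30 and 0.59, and the dashed line marks the median of all tested genes at 0.02.

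None of the 4 tested complement genes passed the test, which at a background of 13.1% higher and 9.5% lower genes is no result about so small a group. The changes of the 3 chains of C1q were -0.05, 0.14 and 0.16 for C1qc, C1qb and C1qa, against the members' median of 0.18. C1q starts the classical complement pathway, and in the liver it is made mainly by macrophages. C1qc read 1053, 1114 and 1043 in the Rb null and 1025, 1079 and 1229 in the wild type livers. The groups overlapped, and the 95% interval of the change ran from -0.22 to 0.13, which leaves out a rise as large as the 0.30 of Csf1r. C1qb read 598, 621 and 701 against 571, 527 and 627 (0.14, 95% interval -0.06 to 0.35). C1qa read 396, 373 and 487 against 365, 346 and 392 (0.16, 95% interval -0.09 to 0.41). For C1qa and C1qb the highest Rb null value was that of embryo 3, and the intervals include both 0 and the size of the Csf1r rise. Another C1qb probe set leaned the other way, at 241 ± 58.6 against 268 ± 87.6 (SD, n = 3, change -0.11 ± 0.21). Itgb2, the beta chain of complement receptor 3 and other leukocyte integrins, read 240.0, 207 and 159 against 174, 153 and 164 (0.23 ± 0.14, limma adjusted p = 0.28). Rb null embryo 3 lay within the wild type range. Itgam, the alpha chain of that receptor, was dim at a mean of 28.7.

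Scavenger and Fc receptors take up modified lipoprotein, debris and antibody-coated particles. None of the 4 tested members passed, again too few to set against the 13.1% of all genes. Cd68, a glycoprotein of endosomes and lysosomes, read 332, 402 and 389 in the Rb null and 299, 281 and 364 in the wild type livers, with an overlap through Rb null embryo 1 and wild type embryo 3 (0.22 ± 0.12, limma adjusted p = 0.21). Mrc1, the mannose receptor, which liver sinusoidal endothelium also makes, read 267, 332 and 278 against 238, 291 and 253 (0.14 ± 0.11). Cd14, the co-receptor for lipopolysaccharide, read 296, 322 and 400.2 against 346, 269 and 360 (0.05 ± 0.14). Fcgr1, the high-affinity IgG receptor, read 196, 199 and 175 against 193, 215 and 155 (0.02, 95% interval -0.27 to 0.31). Fcgr1 and Cd14 had the smallest changes of these receptors. No tested member of the scavenger and Fc receptors or of the complement genes passed at an unadjusted limma p below 0.05 either.

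Of the engulfment genes, Mertk, the receptor tyrosine kinase through which macrophages take up apoptotic cells and expelled nuclei, read 249, 277 and 294 in the Rb null and 243, 194 and 232 in the wild type livers. The groups were separate by a narrow gap, and the change of 0.25 ± 0.11 did not pass (limma adjusted p = 0.15). Gas6, the bridging ligand that links phosphatidylserine to Mertk and Axl, read 184, 181 and 214 against 173, 148 and 194 (0.13 ± 0.12), with overlapping groups. Axl was dim at a mean of 21.9.

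The other 12 members had mean signals from 18.2 to 143, under the cutoff of 150.1, so that a level above background was not shown. They include Adgre1, which encodes the F4/80 antigen, and Siglec1, the adhesion receptor sialoadhesin, so the lineage could be followed here through Csf1r, C1q, Cd68, Mpeg1 and Mertk but not through these markers. Adgre1, the brightest of the 12, read 119, 238 and 131 in the Rb null and 107, 204 and 60.2 in the wild type livers. Embryo 2 was the highest in both genotypes, and the groups overlapped. The dimmest tested member was Gas6, with a mean of 182.

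Marco, a scavenger receptor with a collagenous stalk, was the only member whose 3 Rb null values all lay below its 3 wild type values. It read 105, 93.2 and 66.0 in the Rb null and 156, 177 and 162 in the wild type livers, so Rb null livers had 53.4% of the wild type signal. Its mean of 126 kept it out of the test. With no filter, its change was -0.65 ± 0.15 and it was called lower (limma adjusted p = 0.039), while 4.22% of 8251 genes were then lower and 6.73% higher. Whether the Rb null values exceed background was not shown.

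Cybb and Maf were the dim members whose Rb null values all lay above the wild type values. Of the 12 dim members 2 were thus separate upward and 1, Marco, downward. Among tested genes, all above the filter, the shares were 23.5% and 17.6%. Cybb encodes gp91phox, the partner of p22phox in the oxidase, and read 116, 110 and 134 in the Rb null and 77.1, 87.7 and 81.5 in the wild type livers. Maf, a transcription factor of mature macrophages that endothelium also expresses, read 81.0, 94.8 and 63.8 against 55.3, 33.4 and 39.8. With no filter neither passed, at 0.36 ± 0.13 for Cybb (limma adjusted p = 0.13) and 0.48 ± 0.15 for Maf (limma adjusted p = 0.088). The groups of the remaining 9, namely Adgre1, Msr1, Fcgr2b, Fcgr3, Siglec1, Itgam, Axl, Aif1 and Fcer1g, overlapped. For Fcer1g, the gamma chain of Fc receptors, a dimmer probe set read 33.1, 31.0 and 22.6 against 6.90, 11.4 and 8.90 in separate groups, but the brighter overlapped and had the lower mean in Rb null livers (21.6 against 32.5).

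**Figure D3:**
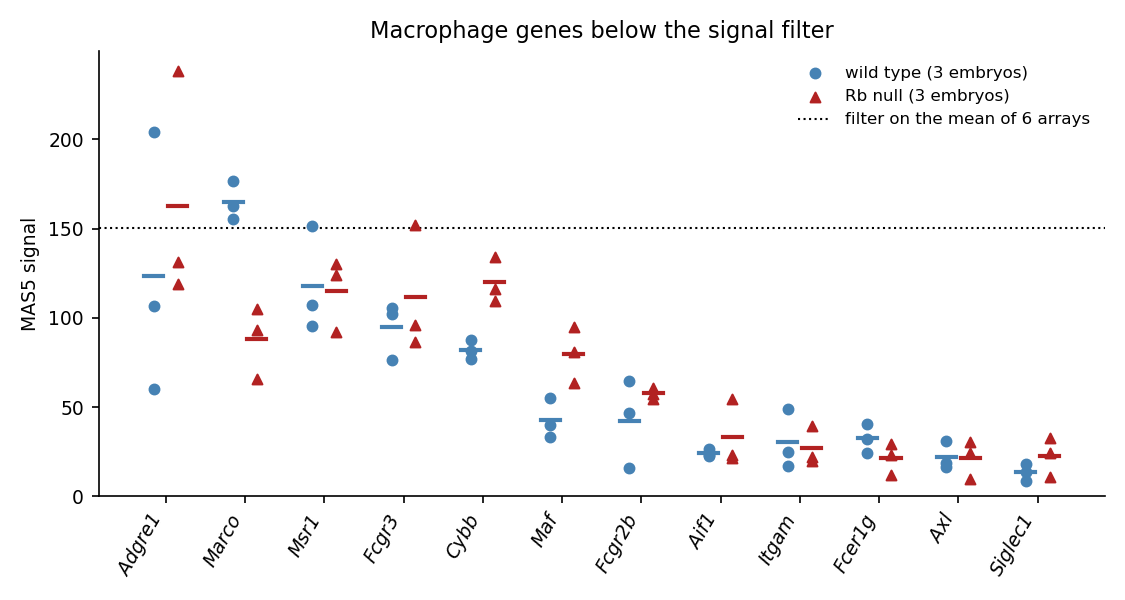
MAS5 signal (linear axis from 0) of the 12 macrophage genes whose mean over 6 arrays lay below the filter of 150.1 (dotted line), with 3 embryos and the mean of each genotype. Marco is lower in all 3 Rb null embryos, Cybb and Maf are higher in all 3, and the other 9 overlap.

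Set side by side, the embryos differed in how far the tested members lay from their wild type means. The median deviation on the log2 scale was 0.12, 0.27 and 0.27 in Rb null embryos 1, 2 and 3, and -0.01, -0.08 and 0.07 in wild type embryos 1, 2 and 3. Rb null embryo 1 thus lay nearest to the wild type range. Over all tested genes the same deviation was 0.03, 0.03 and 0.02 in the Rb null embryos. In whole livers, fewer cells of a type and less RNA per cell cannot be told apart, and neither can more cells and more RNA per cell.

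Other genes of macrophages and monocytes, from a list that shares none of the members, gave few calls. Of 17 tested, 3 rose and 0 fell (0 also at an unadjusted limma p below 0.05), which is 17.6% against the 13.1% of all genes, with a median change of 0.12. Csf2ra, the alpha chain of the receptor for granulocyte-macrophage colony-stimulating factor, read 196, 216 and 234 in the Rb null and 105, 99.5 and 137 in the wild type livers. It had the largest change of the list (0.70 ± 0.13, limma adjusted p = 0.0079). Its wild type mean of 114 lay below the filter of 150.1, as did that of Ncf4 at 149.6, so both were tested only through their higher Rb null values. Without them 2 of 15 genes rose (13.3%), near the share of the whole array. Cebpb, a transcription factor of activated macrophages that hepatoblasts also express, rose from 574 ± 16.0 to 805 ± 47.4 (SD, n = 3, limma adjusted p = 0.0037).

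Ctss, the cathepsin of antigen-presenting cells, rose from 561 ± 42.7 to 723 ± 66.9 (SD, n = 3, 0.34 ± 0.09, limma adjusted p = 0.032). This call was lost in 9 of 18 alternatives, such as quantile normalization (limma adjusted p = 0.071) and the fit without Rb null embryo 2 (0.101). Spi1, named after its value was seen because it encodes PU.1, read 378, 309 and 380 in the Rb null and 340, 308 and 330 in the wild type livers. The groups overlapped, and the change of 0.11 ± 0.10 did not pass (limma adjusted p = 0.49).

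Lysosomal enzymes and membrane proteins moved in both directions, with 9 of 36 tested genes higher and 2 lower (25% and 5.56%, median 0.12). Of all tested genes 13.1% rose and 9.5% fell. Arsa, which encodes arylsulfatase A (0.63 ± 0.13), Cd63, a tetraspanin of late endosomes (0.51 ± 0.07), Hexa, a subunit of hexosaminidase (0.50 ± 0.09), and Man2b1, an acid mannosidase (0.38 ± 0.06), rose most. Arsa passed the filter only through its Rb null mean of 225 against 127 in wild type livers, and without it 8 of 35 rose (22.9%). The genes that fell, named after their values were seen, were Acp5, an acid phosphatase, from 1476 ± 126 to 1168 ± 38.4 (SD, n = 3), and Ctsb, cathepsin B, from 5740 ± 515 to 4776 ± 272. After scaling to equal medians 5 genes of this list were higher and 7 lower, where 6.94% of all tested genes rose and 20.7% fell. Without wild type embryo 3 the counts were 5 and 1, where 8.79% of all tested genes rose and 4.84% fell. Without Rb null embryo 1 or Rb null embryo 2 no gene of this list was lower, where 5.54% and 5.6% fell. Most genes of this list, though not all, are active in many cell types.

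Engulfment and bridging genes beyond the members had 8 of 14 tested genes higher and 0 lower (0 also at an unadjusted limma p below 0.05). The share higher was 57.1% against 13.1% of all tested genes, and the median change was 0.25. The count was 3 without wild type embryo 3, 5 without Rb null embryo 2 and 5 without wild type embryo 1, where 8.79%, 7.73% and 9.41% of all genes rose. Pros1, the bridging ligand protein S, rose from 209 ± 8.94 to 292 ± 21.6 (SD, n = 3, 0.40 ± 0.10, limma adjusted p = 0.022), a call lost in 8 of 17 alternatives. Vcam1, the adhesion molecule of island macrophages that endothelium and stroma also make, rose from 1197 ± 60.2 to 1514 ± 62.6 (0.33 ± 0.06, limma adjusted p = 0.0090). Anxa1, a phosphatidylserine-binding annexin (0.50 ± 0.08), and Itgav, the integrin alpha V chain (0.38 ± 0.06), also rose. Averaging its probe sets ended the Itgav call (0.31, limma adjusted p = 0.47), and equal medians ended that of Vcam1 (0.20, limma adjusted p = 0.062). Under equal medians the list had 2 higher genes, where 6.94% of all tested genes rose. Maea, the macrophage protein that holds erythroblasts in islands, did not pass (0.13 ± 0.07, limma adjusted p = 0.21) and was named after its value was seen. In the same livers 36.4% of tested endothelial and 63.6% of tested mesenchyme markers rose. Which cells carried the rises of the engulfment and bridging list was not tested.

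Markers of other cell types moved in the same livers. Granulocytes also express Lyz2, Cyba, Cybb and Itgb2, and most leukocytes express Cd53 and Laptm5. Of 12 tested granulocyte markers 7 rose and 0 fell (0 also at an unadjusted limma p below 0.05), with a median change of 0.27. The share higher was 58.3%, where 13.1% of all tested genes rose and 9.5% fell. The summed signal of all 18 granulocyte markers with a probe set, also those below the filter, lay between 14419 and 14586 in the Rb null livers. In the wild type livers it was 11079 to 11358. Ltf, lactoferrin of secondary granules (0.77 ± 0.12), Prg2 (0.58 ± 0.09) and Epx (0.53 ± 0.13) of eosinophil granules, and S100a8 (0.57 ± 0.05) rose most, while Ctsg, Mmp8, Mmp9, Cxcr2, Gfi1 and Chil3 lay below the filter. The number higher was 4 after equal medians and 4 without Rb null embryo 1, where 6.94% and 7.94% of all tested genes rose. The Epx call was lost in 9 of 17 alternatives. The part of granulocytes in the rises of Lyz2, Cyba, Laptm5 and Cd53 was not tested.

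Megakaryocyte markers rose in 3 of 4 tested genes (75%), where 13.1% of all tested genes rose. These were Gp5 (1.07 ± 0.12), Gp1bb (1.02 ± 0.11) and Vwf (0.91 ± 0.07). Pf4 and Itgb3 lay below the filter, and their groups overlapped. Endothelial markers rose in 4 of 11 (36.4%) and mesenchyme markers in 7 of 11 (63.6%), where 13.1% of all tested genes rose. The median changes of the megakaryocyte, endothelial and mesenchyme lists were 0.97, 0.26 and 0.39, each above the 0.18 of the macrophage genes. These differences were not tested. Signals were also summed over all markers of a list with a probe set, including those below the filter. The sums, Rb null against wild type, were 2625 to 3015 against 1568 to 1699 for megakaryocyte markers. They were 6569 to 6976 against 5348 to 5588 for endothelial and 15320 to 16980 against 11947 to 12286 for mesenchyme markers. The endothelial genes were Kdr (0.66 ± 0.08), Emcn (0.59 ± 0.13), Ramp2 (0.38 ± 0.09) and Cdh5 (0.31 ± 0.08), and the Cdh5 call was lost in 6 of 18 alternatives. The endothelial count was 2 after equal medians and 2 under the stricter filter, where 6.94% and 13.7% of all tested genes rose. That filter left 1 megakaryocyte gene higher. Emcn passed the filter only through its Rb null mean of 231 against 136 in wild type livers. Without it 3 of 10 endothelial genes rose, and their median change was 0.25. Among mesenchyme genes Col3a1 (0.76 ± 0.07), Lox (0.64 ± 0.16), Col5a1 (0.62 ± 0.08) and Postn (0.48 ± 0.07) rose most, and the Lox call was lost in 8 of 17. Lox, too, was tested only through its Rb null mean of 259 against 145.1 in wild type livers. Without it 6 of 10 mesenchyme genes rose, and their median change was 0.38. Of 12 erythroid markers 7 fell (58.3%), where 9.5% of all tested genes fell, and 0 rose (0 also at an unadjusted limma p below 0.05). Their median was -0.37, and their summed signal was 59057 to 63215 in Rb null against 72818 to 81430 in the wild type livers. Without suffixed probe sets, which can read several transcripts, 4 erythroid genes fell and 1 rose, where 9.98% of all tested genes fell and 14.2% rose. Hepatoblast markers had 1 of 11 higher, Hnf4a (0.49 ± 0.11), and 2 lower, Apoa1 (-0.31 ± 0.07) and Alb (-0.20 ± 0.05). These shares of 9.09% and 18.2% stand beside 13.1% higher and 9.5% lower of all tested genes. Alb turned to 0.04 after quantile normalization and 0.05 after cyclic loess. The Alb call was lost in 10 and the Apoa1 call in 5 of 18 alternatives. No hepatoblast gene was lower without Rb null embryo 1, Rb null embryo 2 or wild type embryo 3. In those fits 5.54%, 5.6% and 4.84% of all tested genes fell. Without Rb null embryo 3, 3 hepatoblast genes were higher, where 10.2% of all tested genes rose. Of 2 tested lymphocyte markers 0 changed, also at an unadjusted limma p below 0.05, and of 2 mast cell markers Kit, which progenitors also express, rose (0.76 ± 0.11). Since every array was scaled to the same trimmed mean, a fall of bright erythroid transcripts and a rise of others are not independent measures, and the part of this shift in the macrophage values was not tested.

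**Figure D4:**
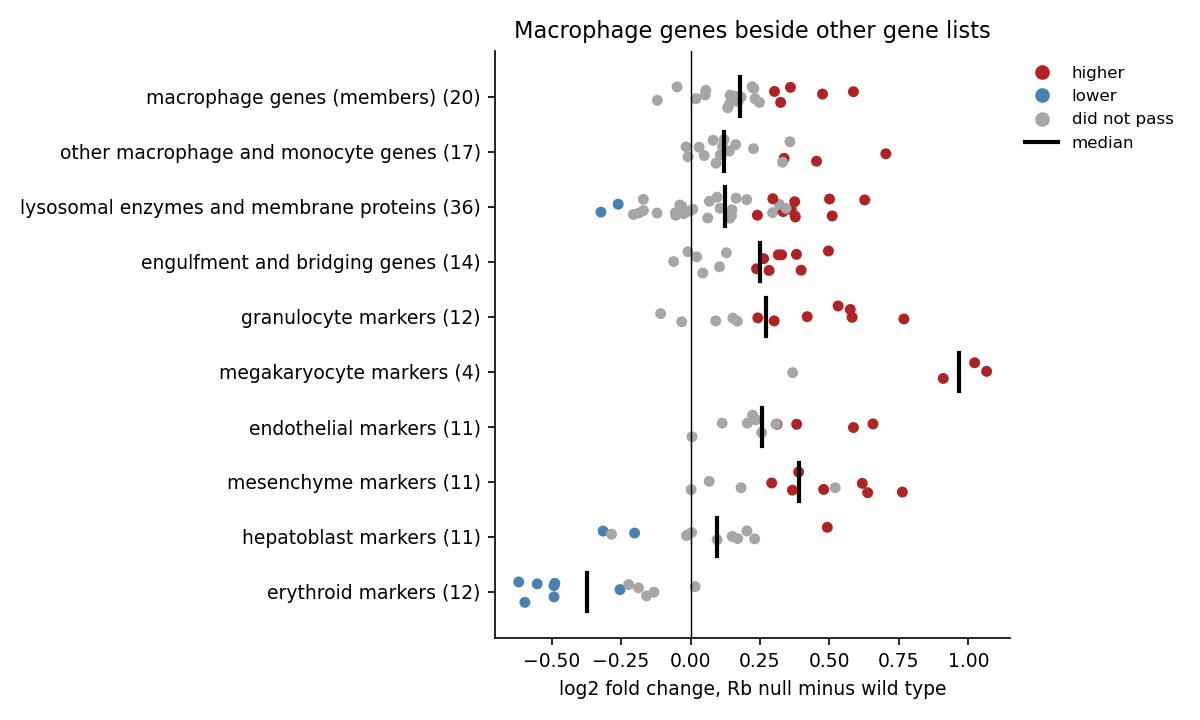
Log2 fold change (Rb null minus wild type) of tested genes in the macrophage list and 9 other lists, 1 point per gene with the number of genes in brackets. Black bars are medians, which run from -0.37 for erythroid markers to 0.97 for megakaryocyte markers, with the macrophage genes at 0.18.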

How the data were processed

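The authors deposited 1 MAS5 signal intensity per probe set and array; per the submitters' processing notes the software was MAS5, and its version and target level are not given in the sources used here. The 2% trimmed mean of each deposited array was about 500.2, none was logged, and detection calls were not used here. Probe sets were named by the platform annotation, with symbols checked through a RefSeq gene table (GRCm38.p6). Of the probe sets, 10833 had 1 symbol, 396 several and 1193 none, and 66 controls were left out. Signals plus an offset of 50.02 were taken to log2, and 6793 probe sets (5273 genes) with a mean above 150.1 were fitted with limma 3.58.1 in R 4.3.3 (lmFit, eBayes with an intensity trend, two-sided), after the procedure had been tested on simulated data. No p-value was computed for a list.

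All members are named. From each other list the up to 4 largest changes past the threshold were chosen for naming, or the 2 smallest p where none passed; lists are given by counts where space was short. The members and the lists were chosen with earlier results of these data known. Labels give each embryo a number, but do not say that it marks a shared litter. The deviations of same-numbered embryos from their group means correlated at r = -0.06, 0.05 and 0.27 across probe sets for numbers 1, 2 and 3. Differently numbered embryos were not compared in this way, so these values do not decide whether litters were shared. As the labels state no pairing, the embryos were not treated as pairs, and the replicate number served as a block in an alternative only. Replicates are separate embryos, and 3 arrays per genotype limit the precision. Alternatives covered normalization, offset, filter, variance model, replicate block, choice of probe set and leaving out each embryo.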

Additional observations from a re-analysis of the deposited data

How the results depend on the processing

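The count of 5 higher macrophage genes became 3 after scaling to equal medians and 3 after cyclic loess, and ran from 3 to 5 when single embryos were left out. It was 5 with the replicate block, which changed no call among the members. The genes lost were Csf1r, Cd53 or Laptm5. Cyba and Lyz2 kept their calls in all 18 alternatives. The count of lower members was 0 in all alternatives except that with no filter, where it was 1 (Marco). The median change of the members was 0.090 after quantile normalization, 0.053 after equal medians and 0.15 to 0.21 when embryos were left out. Equal medians moved the median of all tested genes by -0.13, so relative to all genes the members' median stayed at 0.16 (0.11 after quantile normalization and after cyclic loess). Over all genes that scaling gave 366 higher and 1093 lower genes against 690 and 501, so 25.1% of calls were upward against 57.9%. Apart from Alb, no named gene that was tested changed direction with a call; Alb read 0.039 (quantile) and 0.049 (cyclic loess). Of 346 values of single members under alternatives, 334 kept their direction and their side of the threshold, or were uncalled on both sides, and 12 lost the call. Without detection calls, the 12 dim members have no shown level above background.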

Other observations

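The cytosolic subunits of the phagocyte NADPH oxidase, which granulocytes express as well, were looked at after their values had been seen, so their values are a description. Ncf1 read 154, 152 and 175 in Rb null and 85.3, 83.7 and 119 in wild type livers, in separate groups, with a mean of 128 below the signal filter. Ncf4 read 224, 170 and 212 against 156, 138 and 156, also in separate groups, and its change of 0.33 ± 0.12 did not pass (limma adjusted p = 0.091). Rac2, the small GTPase of the oxidase, read 1288, 1322 and 1641 against 1264, 1273 and 1388 in overlapping groups, and its change of 0.10 ± 0.09 did not pass (limma adjusted p = 0.48). Of all tested genes 23.5% had every Rb null value above every wild type value.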
